A study of Mus musculus with 12 samples.

Results

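The cytosolic ribosomal protein genes encode the proteins that, with the ribosomal RNAs, build the large and the small subunit of the ribosome outside the mitochondria. They were taken as the probe sets annotated to exactly 1 gene whose symbol begins with Rpl or Rps and a digit, or is Rplp0, Rplp1, Rplp2 or Rpsa, and the ribosomal S6 kinases, Rps19bp1 and pseudogenes were left out. The rule found 105 of 45037 probe sets, which stand for 49 of the 18193 genes with a probe set of their own, 26 of the large and 23 of the small subunit. Of these, 96 probe sets of 47 genes had a mean signal of at least 100 and were tested. Rps16, with a mean signal of 6.52, and Rpl3l, a paralog of Rpl3 known from muscle, with 27.2, were not. A further 110 probe sets name a ribosomal protein gene together with other genes. They hold the only probe sets of 31 symbols, among them Rpl5, Rplp1, Rpl3 and Rpl24, which were therefore not analysed here.

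RNA was measured on 12 arrays of mouse blastocysts, 4 of each group. The first group was cultured in Ca-free medium, the second was treated by 20 pulses of Ca2+, and the third was control. By its title the study concerns the Ca2+ oscillations of the fertilised egg, and the question is how blastocyst expression differs once their pattern has been changed. The sources used here give neither the strain nor what a pulse consisted of, nor how long culture without Ca2+ lasted. Since nothing in the labels ties a replicate to its own collection of embryos, a p-value here covers the spread between these arrays, which may be technical.

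Ribosomal protein mRNAs are among the most abundant mRNAs of growing cells. Most begin with a cytosine followed by a run of pyrimidines, the 5′ terminal oligopyrimidine (TOP) motif, through which mTORC1 and LARP1 control their translation. The blastocyst makes its own ribosomes from the embryonic genome, after the ribosomes stored in the egg have carried the first cleavages.

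In the genome this pyrimidine run lies at the start of transcription, so stretches of 20 bases before and 20 after the annotated start are shown for 7 genes, from RefSeq (GRCm38.p6). Rps2, Rpl37a, Rpl35 and Rpl14 had the smallest adjusted p among the genes called higher in Ca-free medium, whereas Rps18, Rplp2 and Rps10 were bright genes that were not called there against control. Capitals mark the longest run of C and T in each stretch.
Rps2 (chr17:24720043-24720082, + strand): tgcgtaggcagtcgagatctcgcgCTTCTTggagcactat
Rpl37a (chr1:72711240-72711279, + strand): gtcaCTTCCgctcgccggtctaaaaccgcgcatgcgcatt
Rpl35 (chr2:39005112-39005151, - strand): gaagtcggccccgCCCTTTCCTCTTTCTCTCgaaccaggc
Rpl14 (chr9:120571497-120571536, + strand): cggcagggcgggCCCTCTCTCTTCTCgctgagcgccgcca
Rps18 (chr17:33955646-33955685, - strand): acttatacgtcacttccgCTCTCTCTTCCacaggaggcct
Rplp2 (chr7:141447631-141447670, + strand): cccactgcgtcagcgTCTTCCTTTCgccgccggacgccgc
Rps10 (chr17:27635225-27635264, - strand): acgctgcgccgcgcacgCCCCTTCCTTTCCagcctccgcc

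The run was 18 bases long in Rpl35, 14 in Rpl14 and 13 in Rps10, but 6 in Rps2 and 5 in Rpl37a. Annotated starts were not checked against measured ones, so a short run does not show that an mRNA lacks the TOP motif. The RefSeq table listed 51 promoters for 43 of the 49 genes. A run of at least 8 pyrimidines within 25 bases on either side of the start was present in 23 of the 51 (45.1%), against 6464 of all 32851 promoters (19.7%). Searched on both strands over 300 bases, CCGGAAG, a core of ETS family sites, was present in 41.2% of the ribosomal protein promoters and 8.86% of all. AAGATGG, a core of YY1 sites, was present in 15.7% and 6.34%, and TATAAA, the TATA box, in 11.8% and 13.6%. A match is a string of letters and not a measured site.

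On these arrays the ribosomal protein genes lay at the top of the signal scale. Taking the probe set with the highest signal for each gene, 39 of the 47 genes had a mean signal of 5000 or more and 32 of at least 10000, and 46 of their probe sets, of 31 genes, were in the brightest hundredth of the 27808 tested. The brightest probe sets of the 47 genes supplied 1.61% to 1.82% of the summed signal of an array in Ca-free medium, 1.45% to 1.56% after 20 pulses and 1.57% to 1.70% in control. The highest mean signals were those of Rps18 (19365), Rpl13a (16293) and Rplp2 (15781), and the lowest of the tested genes those of Rps27 (247), Rpl27a (706) and Rpl12 (1050). A signal also depends on the probes, so these values do not rank the mRNAs by abundance.

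**Figure D1:**
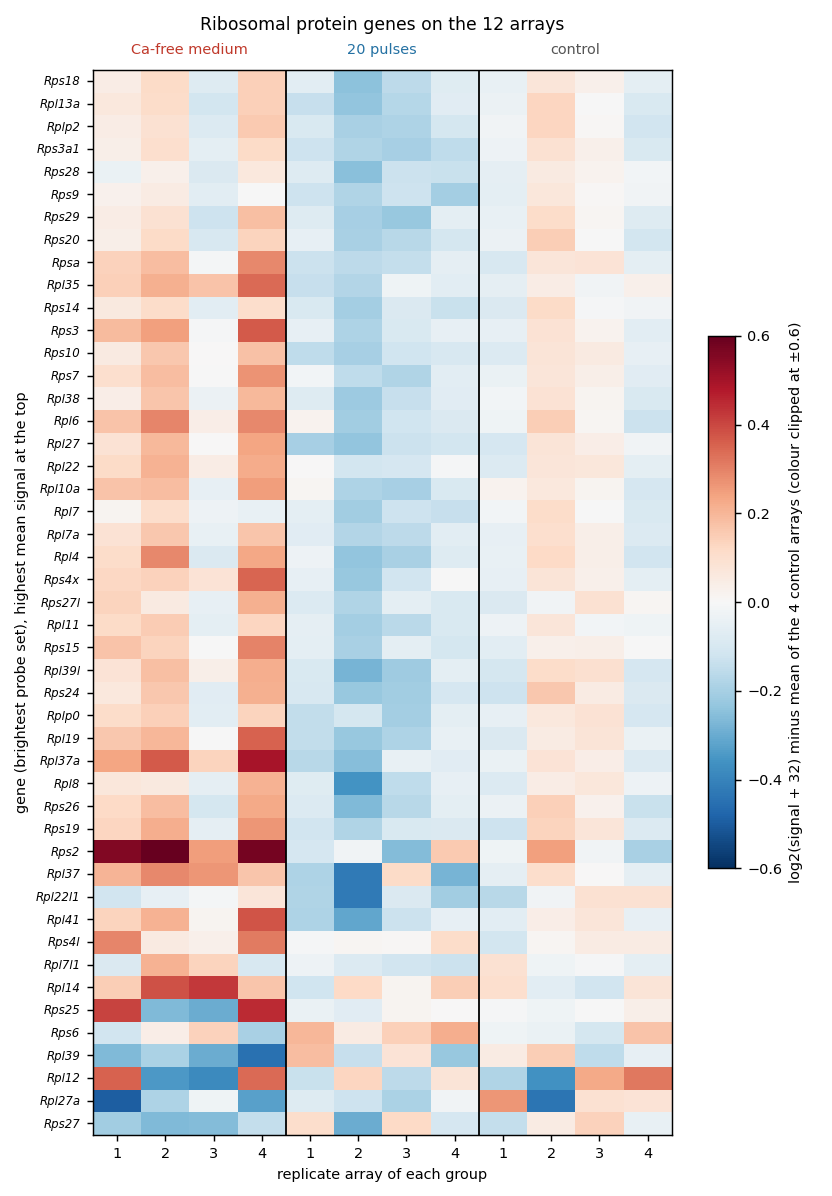
Each row is 1 of the 47 tested ribosomal protein genes by its brightest probe set, ordered by mean signal, and each column 1 array. Colour gives log2(signal + 32) minus the mean of the 4 control arrays, clipped at 0.6 either way. Most rows above Rps4l are red in Ca-free medium, least so on array 3, and blue after 20 pulses, and the 8 genes with a mean signal under 5000, in the lowest rows, vary without that pattern.

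Several features of whole arrays differed between the groups. The arrays carry the same trimmed mean, but the deposited median signal was 38.3 to 39.2 in Ca-free medium, 47.4 to 53.7 after 20 pulses and 49.4 to 53.0 in control. Signal of 18S rRNA, the RNA of the small subunit, averaged 2.19 times control in Ca-free medium (p = 0.0286 in an exact two-sided permutation test, the lowest value possible with 4 against 4 arrays; 0.0571 after Benjamini-Hochberg adjustment over 6 tests). It lay between 3255 and 4377 in Ca-free medium, between 2153 and 2450 after 20 pulses, and at 2083, 2158, 1370 and 1432 on the control arrays. The mean 3′ to 5′ ratio of Actb and Gapdh, a sign of RNA quality and labelling, was 2.21 to 3.00 in Ca-free medium, 2.92 to 3.57 after 20 pulses and 3.10 to 4.84 in control. All 5 tested markers of oviduct and uterine epithelium were lower in Ca-free medium than in control by limma, with a summed signal of 607 to 792 in Ca-free medium, 927 to 1188 after 20 pulses and 1180 to 1348 in control. Their median log2 change against control was -0.73, where 28.8% of all genes were called lower and all tested probe sets of like low signal (bins with a median signal of 106 to 263) had median changes of -0.41 to -0.36. Of these 5 epithelial markers, 3 were lower with quantile normalization, 2 with median scaling and 5 with hybridization-control scaling. Those scalings called 9.98%, 5.53% and 49.1% of all tested probe sets lower. Of the tested markers of cumulus cells, oocytes and erythroid cells, 1 of 2, 2 of 6 and 0 of 1 were lower and 0 higher, and all 12 listed markers of the blastocyst lineages were bright enough to be tested. The part of these features in the results below was not tested. Fewer cells of a type and less RNA per cell cannot be told apart in these samples.

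Against control, the signal of ribosomal protein genes in Ca-free medium was slightly higher with trimmed-mean scaling and slightly lower with hybridization-control scaling, and Rps2 led the increases. Of the 47 genes, 11 were called higher (23.4%) and 1, Rpl39, lower (2.13%) by limma at an adjusted p under 0.05, and 35 were not called. Among all 13599 genes tested the same way, 12.3% were called higher and 28.8% lower. The median log2 change of the ribosomal protein genes was 0.09, a fold of 1.07, against -0.18 over all tested probe sets, and 40 of the 47 were above 0. The direction of this median held with quantile normalization (0.02) and median scaling (0.50), and turned to -0.11 when arrays were scaled to their hybridization controls. Those scalings put the median of all tested probe sets at -0.02, 0.19 and -0.36. The large subunit had 7 of 25 genes higher and 1 lower, and the small subunit 4 of 22 higher and 0 lower (limma; 7 higher and 0 lower at an unadjusted p under 0.05, where 15.7% of all genes were higher and 35.3% lower).

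Rps2, a small-subunit protein near the path of the mRNA, showed the largest change, on a single probe set whose _x_at ending marks probes that may also read similar transcripts. Its signal was 11556, 12061, 9367 and 11708 in Ca-free medium, and 7706, 9318, 7732 and 6857 in control. The lowest Ca-free array stood just above the highest control array, and the 20 pulses arrays, at 7322, 7741, 6558 and 8773, lay within or just below the control range. Rps2 averaged 11173 ± 1222 in Ca-free medium, against 7903 ± 1027 in control (SD, n = 4 each), a fold of 1.41 (log2 change 0.50 ± 0.10 SE, limma adjusted p = 0.00224). It was the only ribosomal protein gene called higher under the trimmed-mean, quantile, median and hybridization-control scalings alike. With an older set of hybridization controls, tried after the data were seen, 0 of the 47 genes were called higher, Rps2 included, and 30 were called lower. Of all tested probe sets, 1.04% were called higher and 66% lower with these older controls.

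Rpl37a, a zinc-binding protein of the large subunit, had 12556, 13750, 11697 and 15025 in Ca-free medium, against 10372, 11294, 10953 and 10050 in control. The groups did not overlap, and the log2 change was 0.31 ± 0.072 (SE; limma adjusted p = 0.0046). Rpl35, which sits near the exit of the peptide tunnel, had 15090, 15824, 15405 and 17272 in Ca-free medium and 13157, 14075, 13479 and 13954 in control. Again every Ca-free array was above every control array, with a log2 change of 0.22 ± 0.049 (SE; limma adjusted p = 0.00401). Rpl14, also of the large subunit and of lower signal, had 2493, 2942, 3030 and 2525 in Ca-free medium, against 2415, 2153, 2074 and 2378 in control. These groups were narrowly apart, with a log2 change of 0.28 ± 0.085 (SE; limma adjusted p = 0.0182). The call of Rpl14 was lost in 8 of 24 alternatives, among them quantile normalization (0.16) and the fits without control array 3, Ca-free array 2 or Ca-free array 3. With hybridization-control scaling none of these 3 genes was called, and the log2 changes were 0.10 for Rpl37a, 0.01 for Rpl35 and 0.07 for Rpl14 (limma adjusted p = 0.245, 0.898 and 0.529).

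The other genes called higher changed by little. They were Rpl37 (log2 change 0.23), Rps3 (0.20), Rpl6 (0.20), Rpl19 (0.18), Rps4x (0.17), Rps15 (0.15) and Rpl22 (0.15), with limma adjusted p-values between 0.028 and 0.0488. Only Rpl37 and Rps4x of these had every Ca-free array above every control array. Yet the calls of Rpl37 and Rps4x held in only 8 and 9 of 23 alternatives. Those of Rps3 and Rpl6 held in 13 of 24 and 12 of 23, and those of Rpl19, Rps15 and Rpl22 in 9, 8 and 9 of 24. In all, 6 of the 47 genes had every Ca-free array above and 1 every Ca-free array below all control arrays, against 10.8% and 26.3% of all genes. Leaving out single arrays moved the 11 higher calls to 4 without Ca-free array 2, Ca-free array 4, control array 1 or control array 4, to 6 without Ca-free array 1, to 7 without control array 3 and to 20 without Ca-free array 3. The median change stayed between 0.07 and 0.14 in these fits. Of all tested probe sets, 10.6% were called higher with all arrays. That share was 8.78% without control array 1, 8.88% without Ca-free array 4, 9.34% without Ca-free array 2 and 9.66% without control array 4. Without Ca-free array 3, where most genes were called, it lay between 9.66% and 10.6%.

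Rpl39, a small protein lining the peptide tunnel, fell. It had 1054, 1110, 1029 and 924 in Ca-free medium, and 1319, 1413, 1142 and 1230 in control. The highest Ca-free array was below the lowest control array (log2 change -0.30 ± 0.10 SE, limma adjusted p = 0.028), but the change was 0.10 with median scaling. The call was lost without Ca-free array 4, control array 1 or control array 2, with Ca-free arrays 2 and 3 alone and with controls 3 and 4 alone.

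**Figure D2:**
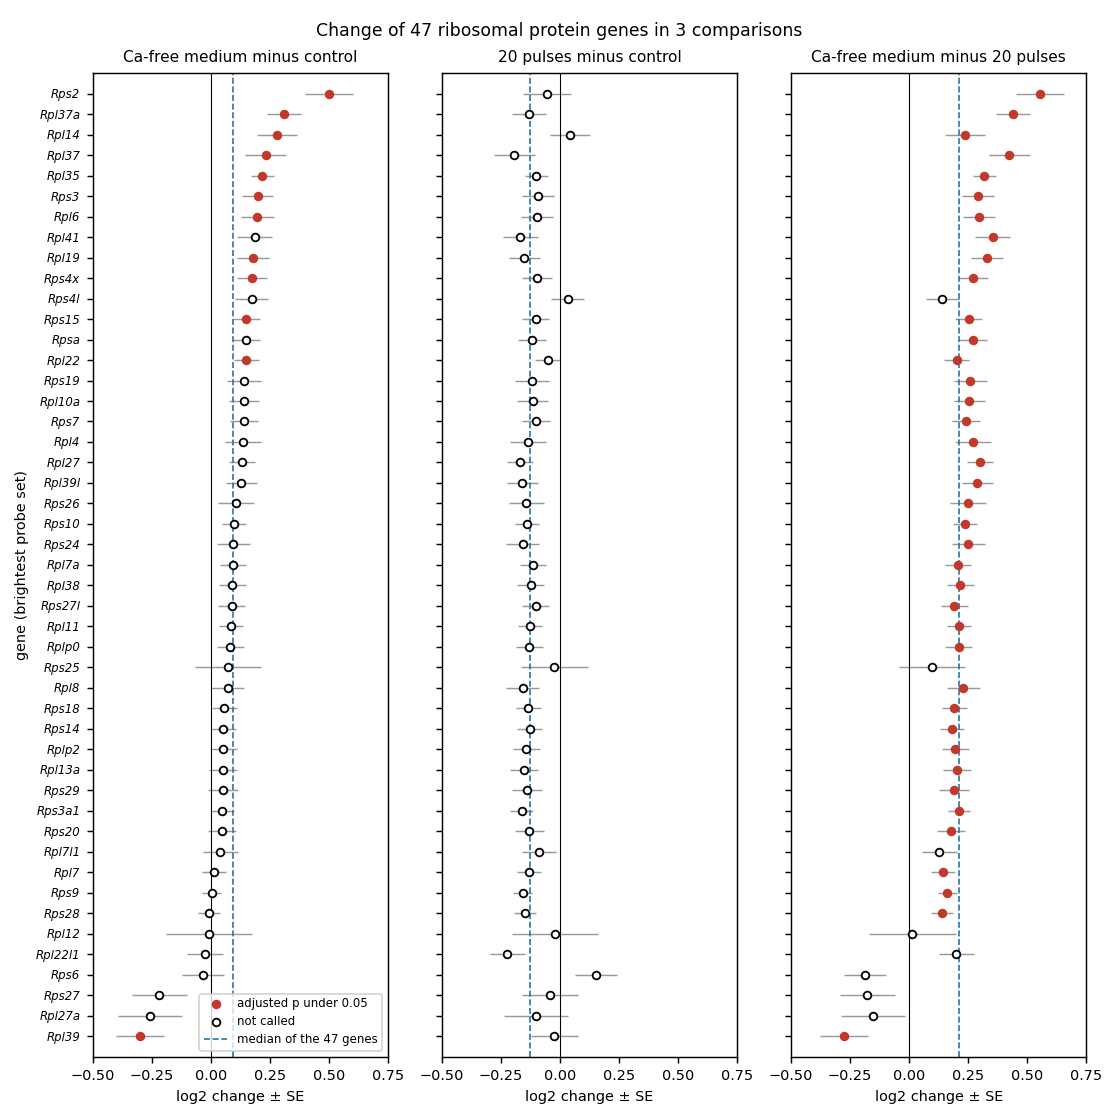
Points give the log2 change of each of the 47 genes in the 3 comparisons, bars the standard error from limma, filled points an adjusted p under 0.05 and the dashed lines the medians of 0.09, -0.13 and 0.21. Rps2 and Rpl37a lie farthest right in Ca-free medium against control and against 20 pulses; the medians are those of trimmed-mean scaling, and with hybridization-control scaling they are -0.11, 0.04 and -0.16.

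After 20 pulses, 0 ribosomal protein genes were called higher or lower than in control by limma, against 0.75% and 0.331% of all genes. At an unadjusted p under 0.05, 0 were higher and 22 of the 47 were lower, against 6.82% and 8.49% of all genes. The values lay almost all on 1 side, with 44 of 47 genes below 0. The median log2 change was -0.13, a fold of 0.915, against -0.03 over all tested probe sets. It was -0.007 with quantile normalization and 0.04 with hybridization-control scaling. In 8 genes every 20 pulses array was below every control array, which held for 5.6% of all genes. Rpl11, Rps10 and Rps18 were among them.

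Rps9, a small-subunit protein, had the smallest adjusted p and was picked for it, as was Rps3a1 next to it. Its signal was 14348, 13779, 14336 and 13566 after 20 pulses, against 15027, 16397, 15726 and 15426 in control. The groups did not overlap, with a log2 change of -0.16 ± 0.041 (SE; limma adjusted p = 0.0669). Rps3a1, a small-subunit protein too, had 14776, 14208, 14035 and 14488 after 20 pulses and 15775, 17137, 16425 and 15135 in control (log2 change -0.16, limma adjusted p = 0.102). The 3 genes above 0 were Rps6 (0.15), Rpl14 (0.04) and Rps4l (0.03), and none of them passed the test. Both comparisons with control share the same 4 control arrays.

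Ca-free medium against 20 pulses gave the most calls, with 38 of 47 genes higher (80.9%) and 1, Rpl39, lower by limma, where 11.2% of all genes were higher and 21% lower. The median log2 change was 0.21, against -0.17 over all tested probe sets. With hybridization-control scaling, 0 genes were called higher and 23 lower, 17 of them called higher with trimmed-mean scaling, and the median was -0.16. Under it 0.338% of all tested probe sets were called higher and 70.9% lower, with a median of -0.49. With quantile normalization 3 genes were called higher, against 5.05% of all tested probe sets, and the median was 0.04. In 26 genes every Ca-free array was above every 20 pulses array, against 11.3% of all genes. The largest changes were those of Rps2 (0.56), Rpl37a (0.44), Rpl37 (0.42), Rpl41, the smallest ribosomal protein (0.35), Rpl19 (0.33), Rpl35 (0.32), Rpl27 (0.30), Rpl6 (0.30), Rps3 (0.29) and Rpl39l (0.29). Rpl39 changed by -0.28 (limma adjusted p = 0.0474), a call lost in 12 of 22 alternatives and turned to 0.09 with median scaling.

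The changes varied with the signal of the probe sets. Of the 39 genes with a mean signal of 5000 or more, a line drawn after the values were seen, 10 were higher and 0 lower in Ca-free medium than in control (limma; 16 higher and 0 lower at an unadjusted p under 0.05), with a median log2 change of 0.11. The other 8 genes gave 1 higher, 1 lower and a median of -0.02. Among the 19 tested probe sets with a mean signal under 2000, 2 were higher and 4 lower, and the median was -0.21, where 10.6% of all tested probe sets were higher and 29.7% lower. Of the 38 genes called higher in Ca-free medium than after 20 pulses, 37 had a mean signal of 5000 or more, and the other was Rpl14.

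Other bright probe sets had medians of the same sign. Outside the ribosomal protein genes, 233 tested probe sets were in the brightest hundredth, with a mean signal of at least 11205. Between Ca-free medium and control, 22 of them were higher (9.44%) and 6 lower, with a median log2 change of 0.07. After 20 pulses against control, 0 were higher and 5 lower by limma, with a median of -0.13. Between Ca-free medium and 20 pulses, 169 were higher (72.5%) and 0 lower, with a median of 0.19. The 31 ribosomal protein genes over the same line had 8 higher (25.8%) and 0 lower against control, and their medians in the same comparisons were 0.09, -0.13 and 0.22. Over the line of 5000, the other 1373 probe sets had a larger share called higher in Ca-free medium than in control (30.9%) than the 39 ribosomal protein genes (25.6%), with medians of 0.10 and 0.11. Between Ca-free medium and 20 pulses the shares were 94.9% of the ribosomal protein genes and 60.3% of the others. The ribosomal protein genes over this line were the brighter set, with a median signal of 12926 against 7800, and these differences were not tested.

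**Figure D3:**
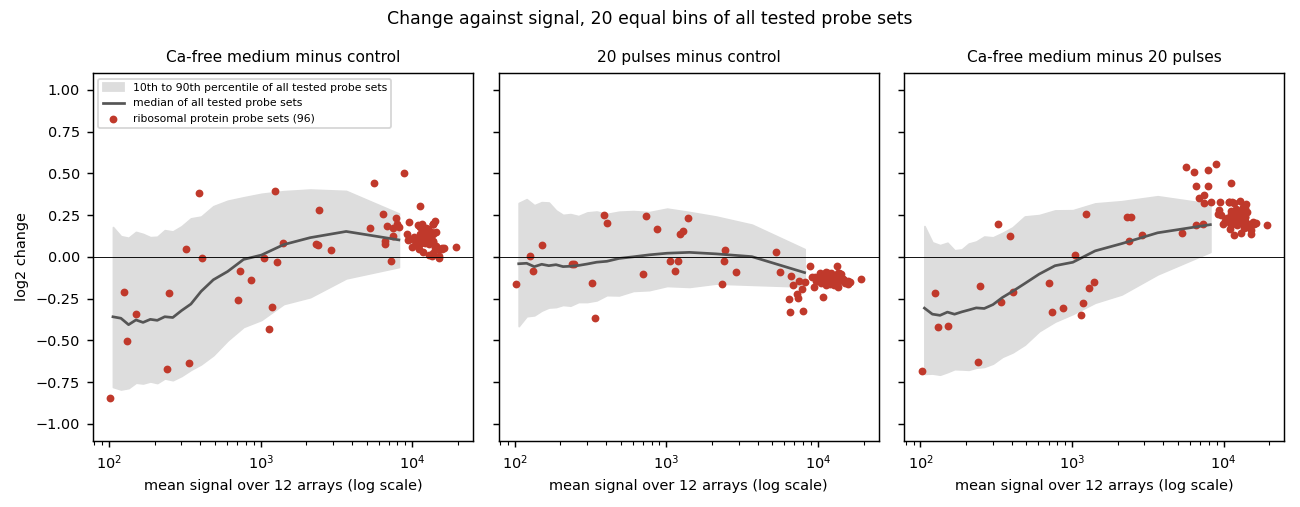
The log2 change of the 96 tested ribosomal protein probe sets (red points) is set against their mean signal over 12 arrays on a log axis, beside the median (line) of all tested probe sets in 20 equal bins, with grey for the 10th to 90th percentile of each bin. The line climbs with signal in both comparisons that hold Ca-free medium, and most red points gather at its bright end; values are those of trimmed-mean scaling, and hybridization-control scaling moves the median of the 47 genes to -0.11, 0.04 and -0.16.

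The median signal of the 39 bright ribosomal protein genes was 13623, 14570, 12694 and 15158 on the Ca-free arrays, 12244, 11361, 11735 and 12061 on the 20 pulses arrays and 12408, 13644, 13130 and 12111 on the control arrays. Ca-free medium and control overlapped, and 3 of the 4 arrays of 20 pulses lay below every control array. Each array was then read against its own other bright probe sets, which leaves out any scaling factor of the array, and the outcome depended on the line drawn. Over the brightest hundredth, the median of the 31 ribosomal protein genes minus that of the 233 others was 0.12, 0.16, 0.13 and 0.15 on the log2 scale in Ca-free medium. It was 0.10, 0.07, 0.09 and 0.12 after 20 pulses and 0.05, 0.06, 0.08 and 0.06 in control, so the 4 Ca-free arrays were above the other 8. The margin was narrow, with 0.124 on Ca-free array 1 against 0.119 on 20 pulses array 4. Over a mean signal of 5000, the median of the 39 genes minus that of the 1373 others was 0.72, 0.77, 0.67 and 0.84 in Ca-free medium, 0.71, 0.63, 0.66 and 0.68 after 20 pulses and 0.70, 0.78, 0.74 and 0.66 in control. There the 3 groups overlapped.

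**Figure D4:**
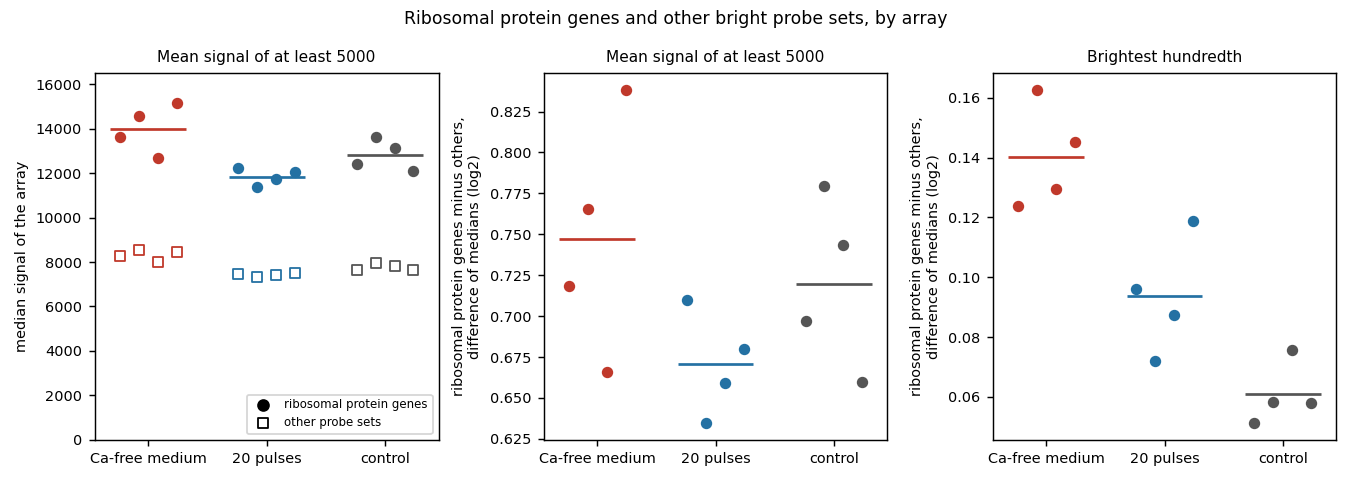
The left panel gives, by array, the median signal of the 39 ribosomal protein genes (filled) and of the 1373 other probe sets (open) with a mean signal of at least 5000, with the mean of the filled points of a group as a line. The other panels give the difference of the 2 medians on the log2 scale, with group means as lines, over 5000 (middle, where the groups overlap) and over the brightest hundredth (right, where Ca-free medium lies at 0.12 to 0.16, 20 pulses at 0.07 to 0.12 and control at 0.05 to 0.08).

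By role, the P stalk proteins, which recruit the elongation factors, were represented by Rplp0 and Rplp2. Rplp0 averaged 12196 ± 790 in Ca-free medium, 10526 ± 448 after 20 pulses and 11528 ± 708 in control (SD, n = 4 each). Its log2 change was 0.08 in Ca-free medium and -0.13 after 20 pulses, neither of which passed. Rplp2 gave 0.05 and -0.14, also without passing. Both were higher in Ca-free medium than after 20 pulses, by 0.21 and 0.20 (limma adjusted p = 0.0131 and 0.0184). Those calls turned round with hybridization-control scaling, where Rplp0 changed by -0.16 and Rplp2 by -0.17 and both were called lower (limma adjusted p = 0.0307 and 0.0136). With quantile normalization they changed by 0.01 and -0.003 and were not called. Rpl11, which joins Rpl5 and 5S rRNA and can bind Mdm2, gave 0.08 and -0.13 against control without passing, and 0.21 between the treatments (limma adjusted p = 0.00858).

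Rps6, the substrate of S6 kinase, was among the dimmer genes and did not follow the bright ones. It had 1146, 1282, 1372 and 1081 in Ca-free medium, 1435, 1289, 1376 and 1454 after 20 pulses and 1221, 1207, 1155 and 1406 in control. The groups overlapped, and the log2 changes against control were -0.03 in Ca-free medium and 0.15 after 20 pulses, neither of which passed, although median scaling gave 0.37 and a call in Ca-free medium. Rpsa, also known as a precursor of the laminin receptor, gave 0.15 in Ca-free medium (limma adjusted p = 0.0592) and -0.12 after 20 pulses. Rps3, at the entry of the mRNA channel, had 15277, 15883, 13330 and 17337 in Ca-free medium, 12969, 11803, 12568 and 12945 after 20 pulses and 12970, 14257, 13623 and 12833 in control. Ca-free array 3 fell within the control range (log2 change 0.20, limma adjusted p = 0.028), and the change was -0.008 with hybridization-control scaling.

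Mutations of many ribosomal protein genes cause human Diamond-Blackfan anaemia, and 11 of these genes were tested here. In Ca-free medium against control, Rps19, Rps24, Rps26, Rps10 and Rps7 changed by 0.14, 0.09, 0.11, 0.10 and 0.14 on the log2 scale, and none of these passed. Rpl11, Rpl27, Rps27, Rps28 and Rps29, added after their values were seen, changed by 0.08, 0.13, -0.22, -0.008 and 0.05, also without passing, and Rpl35, added with them, was the 1 gene of the 11 called higher. After 20 pulses against control 0 of the 11 were called by limma, with log2 changes of -0.17 to -0.04. In Ca-free medium against 20 pulses 10 of the 11 were higher, all but Rps27, where 11.2% of all genes were. With hybridization-control scaling 0 were called higher in that comparison and 5 lower, and against control 0 were higher and 3 lower in Ca-free medium. Under that scaling 70.9% and 49.1% of all tested probe sets were called lower in the same comparisons. Of the genes with known mouse mutants, Rpl38, lost in Tail short mice, gave 0.09 and -0.13, and Rps20, altered in a dark skin mutant, gave 0.05 and -0.13. Rpl27a, altered in sooty foot ataxia mice, gave -0.26 and -0.10, on a mean signal of 637 ± 91.7 in Ca-free medium, 708 ± 36.1 after 20 pulses and 774 ± 156 in control (SD, n = 4 each). None of the 3 passed against control. With hybridization-control scaling Rpl27a (-0.45) and Rps20 (-0.16) were called lower in Ca-free medium, and Rpl38 (-0.12) was not (limma adjusted p = 0.015, 0.0344 and 0.0923).

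Both members of 5 paralog pairs were tested. Rpl39l, a paralog of Rpl39 known from mouse male germ cells, averaged 13209 ± 767 in Ca-free medium, against 12096 ± 1005 in control (SD, n = 4 each), with a log2 change of 0.13 (limma adjusted p = 0.128), whereas Rpl39 fell by 0.30. Rpl22, an RNA-binding protein, rose by 0.15 in Ca-free medium (limma adjusted p = 0.0365), whereas Rpl22l1 changed by -0.03 there and by -0.22 after 20 pulses (limma adjusted p = 0.147), and neither value of Rpl22l1 passed. X-linked Rps4x rose by 0.17, and its autosomal paralog Rps4l changed by 0.17 without passing (limma adjusted p = 0.0602). Rps27 changed by -0.22 on a mean signal of 247, and Rps27l, a paralog known as a p53 target, by 0.09, neither of which passed. Rpl7 and Rpl7l1 changed by 0.01 and 0.04. With hybridization-control scaling Rpl22 changed by -0.06 and Rps4x by -0.03, and neither was called. Rpl39, Rps27, Rpl22l1 and Rpl7 were called lower under it, where 49.1% of all tested probe sets were. Their log2 changes were -0.50, -0.40, -0.23 and -0.19 (limma adjusted p = 0.00191, 0.0153, 0.0235 and 0.00784). The differences between the paralogs were not tested.

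Probe sets of the same gene could disagree, and those of low signal stood apart. In 22 genes with at least 2 tested probe sets, the log2 changes of Ca-free medium against control spanned over 0.3 in 7 genes, with a median span of 0.19. Rpl35 had 6 tested probe sets, of which 4 were higher and 1, with a mean signal of 240, was lower (log2 change -0.67, limma adjusted p = 0.00266). It was the only gene with calls in opposite directions. Rps18 had a call of lower signal in a probe set of mean signal 131 (-0.50), and Rps24 in a probe set of 338 (-0.63), while their brightest probe sets changed by 0.06 and 0.09. Rps4x spanned -0.84 to 0.17 and Rpl37a -0.43 to 0.31, with the dim probe sets short of the threshold. Rps15, Rps3 and Rps9 went the other way, since their dimmer probe sets changed by 0.44, 0.39 and 0.38 and were called higher.

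**Figure D5:**
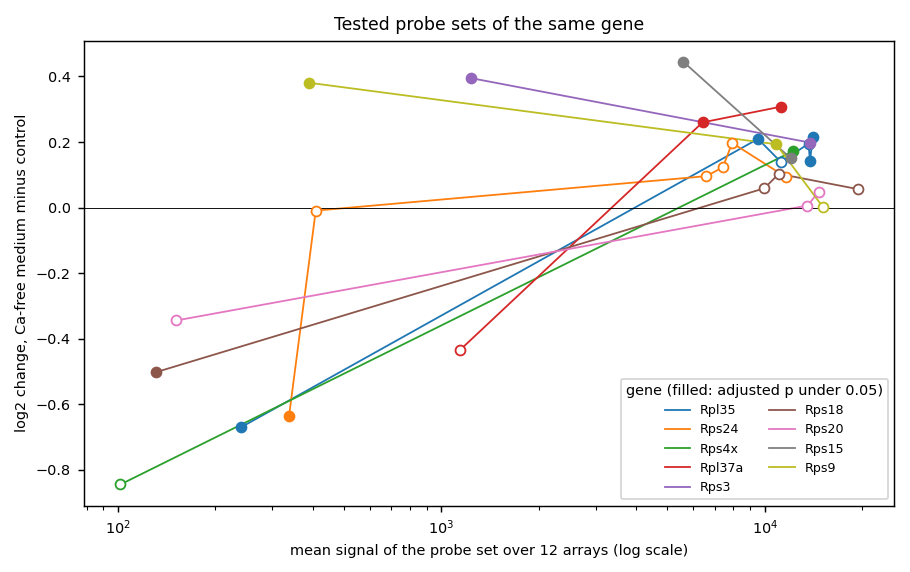
Each line joins the tested probe sets of 1 of 9 genes, with the mean signal over 12 arrays on a log axis and the log2 change of Ca-free medium against control on the other, filled where the adjusted p was under 0.05. The dim probe sets of Rpl35, Rps24, Rps4x, Rpl37a, Rps18 and Rps20 lie below 0, and those of Rps3, Rps9 and Rps15 above 0.2, under trimmed-mean scaling. With hybridization-control scaling the brightest probe sets of Rps24, Rps3, Rps4x, Rps15, Rps18, Rps20 and Rps9 lie below 0 too.

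Against control in Ca-free medium, the genes with a pyrimidine run had the smaller median change. There 3 of 23 tested genes with a run of at least 8 were higher and 1 lower, with a median log2 change of 0.09. Of the 18 tested genes with a listed promoter and no such run, 8 were higher and 0 lower (limma), with a median of 0.15, where 12.3% of all genes were higher and 28.8% lower. With hybridization-control scaling 0 of the genes with a run were higher and 8 lower, against 1 higher and 2 lower of those without, and the medians were -0.12 and -0.06. Under that scaling 2.78% of all tested probe sets were called higher and 49.1% lower. After 20 pulses the medians were -0.13 with a run and -0.11 without. The group with a run held the dim genes Rps27, Rpl27a, Rpl39 and Rps6, which changed by -0.22, -0.26, -0.30 and -0.03 in Ca-free medium against control. Dim Rpl14, which rose, had a run too, as did dim Rps25, which changed slightly upward without being called. Dim Rpl12 and Rpl7l1, which changed by -0.008 and 0.04, had none. The groups with and without a run were not matched for signal. They were compared after the changes were known, and the difference was not tested.

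Fau, which encodes small-subunit protein eS30 as a fusion, lies outside the naming rule but moved with the bright genes. It averaged 9422 ± 1013 in Ca-free medium, 7385 ± 290 after 20 pulses and 8083 ± 561 in control (SD, n = 4 each). It was higher in Ca-free medium than in control by 0.22 (limma adjusted p = 0.0265) and than after 20 pulses by 0.34 (limma adjusted p = 0.0039). Of 17 other genes whose mRNAs carry a TOP motif, 15 were tested. Of these, 4 were higher and 3 lower in Ca-free medium than in control, with a median of 0.09, where 12.3% of all genes were higher and 28.8% lower. With hybridization-control scaling 0 were higher and 7 lower, with a median of -0.12, and Fau, at 0.01, was not called. Under that scaling 2.78% of all tested probe sets were called higher and 49.1% lower. The initiation factor subunit Eif3h rose by 0.26, and the initiation factor Eif4b fell by 0.76, with 1441 ± 133 in Ca-free medium, against 2468 ± 201 in control (SD, n = 4 each; limma adjusted p = 9.67e-05). Btf3, of the nascent chain-associated complex, fell by 0.22, a direction that turned to 0.19 with median scaling. After 20 pulses 0 of the 15 were called either way by limma (0 higher and 7 lower at an unadjusted p under 0.05, where 8.49% of all genes were lower), with a median of -0.11.

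Genes of ribosome production and its control were counted in 3 lists, against 12.3% of all genes higher and 28.8% lower in Ca-free medium than in control. Of 13 tested genes of mTORC1, LARP1 and S6 kinase signalling, Pdcd4, an inhibitor of translation initiation, rose by 0.31 in Ca-free medium and Mlst8, an mTOR subunit, fell by 0.53, and the median was -0.01. Of 11 tested genes of RNA polymerase I, which transcribes the ribosomal RNA genes, Taf1d rose by 0.26 and Polr1d by 0.19, and the median was -0.05. Of 11 tested genes of ribosomal protein chaperones, import factors and nucleolar stress sensing, Bccip rose by 0.35, Ipo5 by 0.20 and Ipo7 by 0.18. The median of these 11 was 0.06. With hybridization-control scaling 0 genes of these 3 lists were called higher, and 8, 4 and 2 were called lower, while Polr1d, Ipo5 and Ipo7 turned to -0.01, -0.008 and -0.03. Of all tested probe sets, 2.78% were called higher and 49.1% lower under that scaling. After 20 pulses against control, limma called 0 genes of these 3 lists (2 higher and 4 lower at an unadjusted p under 0.05, where 6.82% and 8.49% of all genes were).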

How the data were processed

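Total RNA of mouse blastocysts was purified with a PicoPure kit and labelled with an Affymetrix small-sample assay, per the labels' protocols. The deposited values are linear intensity signals made by the authors with MAS5, per the submitters' processing notes (version: not given in the sources used here). On every array the deposited 2% trimmed mean was 150. Signals were rescaled to a trimmed mean of 500, 32 was added and log2 taken, so fold changes of low signals are understated. The test took probe sets that averaged 100 or more across all arrays and left out the 64 array controls. The platform's table pairs 34945 probe sets with 1 gene, 932 with several and 9160 with none, and 34741 were matched to RefSeq by gene identifier.

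A single linear model of the 12 arrays was fitted in R 4.3.3 with limma 3.58.1 (lmFit, then eBayes with trend on), and p-values were Benjamini-Hochberg adjusted over all 27808 probe sets with 0.05 as the threshold. A gene is given by its brightest tested probe set. Probe sets whose names end in _x_at, _s_at or _a_at can also read similar transcripts, and pseudogenes of this family are many, so their values are uncertain to that extent. Precision is limited by the number of arrays. Only the limma fit was tested on simulated data, with independent noise and for Ca-free medium against control. The scaling of the arrays and the other steps were not.

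The members and gene lists were chosen with earlier results of these data known. Named were up to 10 members called each way by size of change, members with fixed roles, the 3 brightest and 3 dimmest, genes whose probe sets disagreed, and up to 3 called genes of each pathway list. Promoter stretches and motifs came from RefSeq, and protein sequences were not used here. Residuals of arrays with the same replicate number in different groups had a mean correlation of 0.016 (lowest -0.058), so the numbers were not taken to pair arrays. Alternatives covered scaling, the added value, the filter, the trend, the arrays in the model, a replicate block, single arrays left out, pairs of control or Ca-free arrays, averaging over the probe sets of a gene, and probe sets with a plain _at ending only. Scaling to an older set of hybridization controls was added after seeing the data.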

Additional observations from a re-analysis of the deposited data

Results flagged for a closer look

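Within-group gaps were screened in the 141 sets of 4 arrays given by the 47 genes and 3 groups, and 3 (2.13%) held an array whose distance from its nearest neighbour relative to the whole range passed Dixon's 95% critical value, where chance gives about 5%. Rplp0, of the P stalk, had 11023 on Ca-free array 3, below the other 3 Ca-free arrays. Rps4l, the autosomal paralog of Rps4x, had 5445 on 20 pulses array 4, above the other 3 arrays of its group. Rpl11, of the 5S particle, had 12830 on control array 2, above the other 3 controls.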

How the results depend on the processing

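Scaling of the arrays changed most. In Ca-free medium against control, where 11 genes were higher and 1 lower, quantile normalization gave 5 higher, median scaling 43 higher and 0 lower (median log2 change 0.50), scaling to 9 hybridization controls 1 higher and 14 lower (median -0.11), and the older hybridization controls, chosen after seeing the data, 0 higher and 30 lower (median -0.27). Of all tested probe sets, 9.79% were called higher with quantile normalization and 36.8% with median scaling. Called lower were 49.1% with hybridization controls and 66% with the older controls. In Ca-free medium against 20 pulses, where 38 were higher and 1 lower, quantile normalization gave 3 higher and 0 lower (median 0.036), median scaling 0 lower (median 0.59), hybridization controls 0 higher and 23 lower (median -0.16) and the older controls 0 higher and 42 lower (median -0.31). There 5.05% of all tested probe sets were called higher with quantile normalization. Called lower were 70.9% with hybridization controls and 84.1% with the older controls. The median of 20 pulses against control was -0.0072, 0.035 and 0.026 under quantile normalization, hybridization controls and older controls. Relative to control, the hybridization controls themselves read higher by 0.21 on the log2 scale in Ca-free medium and changed by -0.16 after 20 pulses; the cause was not tested.

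Other choices moved the counts of Ca-free medium against control to 4 higher with no filter, with no intensity trend, with Ca-free arrays 2 and 3 only or with controls 3 and 4 only (0 lower there), to 3 with controls 1 and 2 only, to 7 with the 8 arrays compared, and to 6 higher and 2 lower with plain _at probe sets, which leave fewer genes. In these fits 6.36% to 9.61% of all probe sets were called higher. Called lower were 16.1% with controls 3 and 4 only and 32.9% with plain _at probe sets. A minimum signal of 300 gave 1 gene lower after 20 pulses, where 0 were called, and 1.05% of all probe sets were lower in that fit. Ca-free medium against 20 pulses gave 19 higher with no intensity trend, 15 with Ca-free arrays 2 and 3 only, 9 higher and 2 lower with plain _at probe sets, and 0 lower with no filter, no trend or the 8 arrays compared. Of all probe sets, 6.80% were higher with no trend, 5.95% with Ca-free arrays 2 and 3 only and 6.47% with plain _at probe sets. Lower were 26.1% with plain _at probe sets, 14.4% with no filter, 24.2% with no trend and 20.7% with the 8 arrays. The replicate numbers did not pair the arrays by the check of residuals, although for 7 of 12 arrays the highest correlation was with the same number in another group. A replicate block gave 7 genes higher in Ca-free medium than in control and 36 higher than after 20 pulses. With that block 10.3% and 8.95% of all tested probe sets were higher in the same comparisons.

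Leaving out 1 array at a time gave 4 to 20 genes higher, 0 to 1 lower and medians of 0.07 to 0.14 in Ca-free medium against control. It gave 0 either way and medians of -0.15 to -0.10 after 20 pulses against control, and 26 to 37 higher, 0 to 1 lower and medians of 0.19 to 0.26 in Ca-free medium against 20 pulses. In the fits with 4 genes higher in Ca-free medium than in control, 8.78% to 9.66% of all tested probe sets were called higher. Against 20 pulses, 6.90% to 8.99% were.

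Under hybridization-control scaling 35 of the 47 genes turned below 0 in Ca-free medium against control, 39 turned above 0 after 20 pulses against control and 40 turned below 0 in Ca-free medium against 20 pulses. Of the named genes, those that turned and were called under either setting were as follows. With hybridization controls, Ca-free medium against control gave Rps3 -0.0081, Rpl6 -0.0097, Rpl19 -0.027, Rps4x -0.033, Rps15 -0.056, Rpl22 -0.058, Rplp2 -0.15, Rps18 -0.15, Rpl13a -0.16, Rps20 -0.16 and Rpl7 -0.19, and Ca-free medium against 20 pulses gave Rpl41 -0.014, Rpl19 -0.039, Rpl35 -0.051, Rpl27 -0.069, Rpl6 -0.073, Rps3 -0.077, Rpl39l -0.080, Rplp0 -0.16, Rpl13a -0.16, Rplp2 -0.17 and Rps18 -0.18. Median scaling gave Rpl39 0.10, Rps6 0.37 and Rpl22l1 0.39 against control and Rpl39 0.091 against 20 pulses. Quantile normalization gave Rplp2 -0.0032 against 20 pulses. It set Rps18, the gene of highest mean signal, to the same value on every array, so its change of 0 there was fixed by the method. The mean of its probe sets gave Rps4x -0.34 against control. Plain _at probe sets gave Rpl35 -0.67 against control, and Rpl35 -0.63 and Rpl41 -0.33 against 20 pulses. The call of Rps2 against control held in 23 of 23 alternatives run gene by gene (log2 change 0.29 to 0.91), which do not include the older controls; against 20 pulses it was lost with hybridization controls (0.19).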

Other observations

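Among 12 markers of the blastocyst lineages, 1 was called after 20 pulses against control, where 0.75% of all genes were higher and 0.331% lower. Sox17, a transcription factor of the primitive endoderm, averaged 659 ± 266 in Ca-free medium, 1289 ± 38.8 after 20 pulses and 630 ± 72.2 in control (SD, n = 4 each). Its log2 change against control was 1.00 after 20 pulses, and -0.02 in Ca-free medium, which did not pass. In Ca-free medium against control 2 of the 12 markers were higher and 2 lower by limma, against 12.3% and 28.8% of all genes. Quantile normalization gave 0 higher and 2 lower, median scaling 8 and 1, and hybridization-control scaling 0 and 4. Those scalings called 9.79%, 36.8% and 2.78% of all tested probe sets higher, and 9.98%, 5.53% and 49.1% lower.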
